A study of Cavia porcellus with 12 samples.

Results

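The miR-148 and miR-152 family comprised the entries listed under 3 human precursors, hsa-mir-148a, hsa-mir-148b and hsa-mir-152. An entry is 1 sequence assigned to a precursor at a start position. The family held 23 of the 2489 such entries in the deposited tables and 3 of the 298 precursors, and it was chosen by precursor name, not by measured values. Start positions of a precursor more than 15 bases apart were taken as different arms. Small RNA was sequenced from ventricular cardiomyocytes that had been dissociated with enzymes from the hearts of adult female Hartley guinea pigs (Cavia porcellus). The cells were kept at room temperature with 10 µM doxorubicin (DOX), an anthracycline cancer drug with known toxicity to the heart, or with DMSO, its vehicle. There were 12 libraries in 4 groups of 3: DMSO 1 h, DOX 1 h, DMSO 22 h and DOX 22 h. The labels do not say whether the 3 libraries of a group came from separate animals.

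A miRNA precursor is a hairpin from which 2 short RNAs can be cut, 1 from each arm. The guide strand is kept in the silencing complex and pairs with target mRNAs mainly through its seed, a run of bases near its 5′ end, and the passenger strand of the other arm is mostly degraded. The 3 family members share a seed in their 3p (guide) arms and are best known for repressing DNA methyltransferases, DNMT1 among them, and other mRNAs with matching sites. In humans, miR-148b and miR-152 lie within introns of COPZ1 and COPZ2, genes for subunits of a vesicle coat, and miR-148a lies outside protein-coding genes.

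The listed sequences show what was counted and where the members differ. They are DNA letters as deposited, 5′ to 3′, forms are numbered by abundance in the table of DOX 22 h with DOX 1 h, and capitals mark the first 6 bases shared by the 3 guide arms, or what remains of that run. These are the guide arm forms that the levels and isoform shares turn on.
miR-148a-3p form 1: AGTGCActacagaactttgt
miR-148a-3p form 2: GTGCActacagaactttgtct
miR-148b-3p form 1: AGTGCAtcacagaactttgt
miR-148b-3p form 2: AGTGCAtcacagaactttgtt
miR-148b-3p form 3: AGTGCAtcacagaactt
miR-152-3p form 1: AGTGCAtgacagaacttgg
miR-152-3p form 2: AGTGCAtgacagaacttggt
miR-152-3p form 3: AGTGCAtgacagaacttggg
miR-152-3p form 4: AGTGCAtgacagaacttgggt
miR-152-3p form 5: AGTGCAtgacagaacttggga
miR-152-3p form 6: AGTGCAtgacagaacttggtt
miR-152-3p form 7: AGTGCAtgacagaacttggaa
The passenger forms present in both the 22 h table and the table of DOX 22 h with DOX 1 h were the following, shown because the largest read ratio in the 22 h comparison was among them.
miR-148a-5p form 1: agttctgagacactccgact
miR-148b-5p form 1: agttctgttatacactcaggc
miR-148b-5p form 2: agttctgttatacactcagg

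The leading guide forms were near copies of each other. Counted from 1 at the first listed base, miR-148a-3p and miR-148b-3p matched at 18 of 20 bases and differed by C7T and T8C. The leading miR-152-3p form matched miR-148b-3p at 17 of 19 bases, with C8G and T18G, and miR-148a-3p at 16 of 19 bases, with C7T, T8G and T18G. The passenger arms were less alike, since miR-148a-5p and miR-148b-5p matched at 12 of 20 bases. Each family sequence was listed under 1 precursor. The listed guide forms begin downstream of the 5′ end known for the human mature miRNAs, so the shared run holds only the later bases of the seed. The 6 mature miRNA names of the family stood at 0 in the table of DOX 22 h with DOX 1 h.

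The comparisons rest on 1 column of each table, the mean over both sides of a comparison in normalized counts. The other columns hold the authors' own comparison, its fold changes and values per side included, and were not used here. In the table of DOX with DMSO at 1 h, referred to as the 1 h table, the mean covers both groups and was not split into libraries. Levels are therefore given for 1 h, and no comparison of DOX with DMSO was made. The names of predicted miRNAs in the 22 h table (DOX 22 h with DMSO 22 h) and in the table of DOX 22 h with DOX 1 h, referred to as the DOX table, give replicate 1 of each group, 1 library on each side, and the DOX 22 h library is the same in both. Each mean of these 2 tables equals a sum of whole reads from both libraries, each multiplied by a fixed weight. Reads in DOX 22 h, DMSO 22 h and DOX 1 h were taken from them where 1 solution was possible, for 1216 of 1323 entries of the 22 h table and 1788 of 2369 entries of the DOX table. With 1 library on each side the ratios have no replicate check and no test. Their 95% intervals (Clopper-Pearson) cover counting error only, and PCR copies were counted as reads.

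The labelled cell type was checked against marker miRNAs. All 7 cardiomyocyte precursors of the list (miR-1, miR-133a, miR-208a, miR-208b and miR-499a) had a mean in each table, and together they took 33.5% to 37.1% of the summed means. Precursors of other cell types were present too. The smooth muscle pair miR-143 and miR-145 took 19.4% to 21.0%, almost all of it from miR-143. In the DOX table miR-143 had 1168840 normalized counts and miR-145 had 21445. Endothelial miR-126 took 3.24% to 4.41%, and the 3 fibroblast precursors took 0.197% to 0.266%. The red cell pair took 0.0024% to 0.0073% and the leukocyte pair 0.0060% to 0.0076%. In these bulk samples, fewer cells of a type and less RNA per cell cannot be told apart, and the part of other cells in the family's levels was not tested.

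miR-148a-3p was the main member in all 3 tables. Its summed mean was 20876 normalized counts in the 1 h table, 16209 in the 22 h table and 19968 in the DOX table. It ranked 40 of 346 precursor arms by summed mean at 1 h, 33 of 319 at 22 h and 37 of 435 in the DOX table. miR-148b-3p was next, with 4401, 3455 and 4224 normalized counts in the same order of tables. miR-152-3p followed with 2976, 2088 and 2523. The order of the 3 guide arms was the same in each table. The tables were normalized separately, so a level set beside that of another table also carries the difference in scaling.

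Within the family, the split between members moved little. miR-148a-3p held 73.9%, 74.5% and 74.7% of the summed guide means in the 1 h, 22 h and DOX tables. miR-148b-3p held 15.6%, 15.9% and 15.8%. miR-152-3p held 10.5%, 9.60% and 9.44%. miR-148a-3p thus exceeded miR-148b-3p by 4.74, 4.69 and 4.73 times. In single libraries the order of the lower 2 members could be read from whole reads. miR-148b-3p had 1.62 times the reads of miR-152-3p in DOX 22 h (interval 1.54 to 1.71), 1.69 times in DMSO 22 h (1.60 to 1.79) and 1.73 times in DOX 1 h (1.65 to 1.82). All 3 intervals lay above equal reads, and each overlapped the other two.

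**Figure D1:**
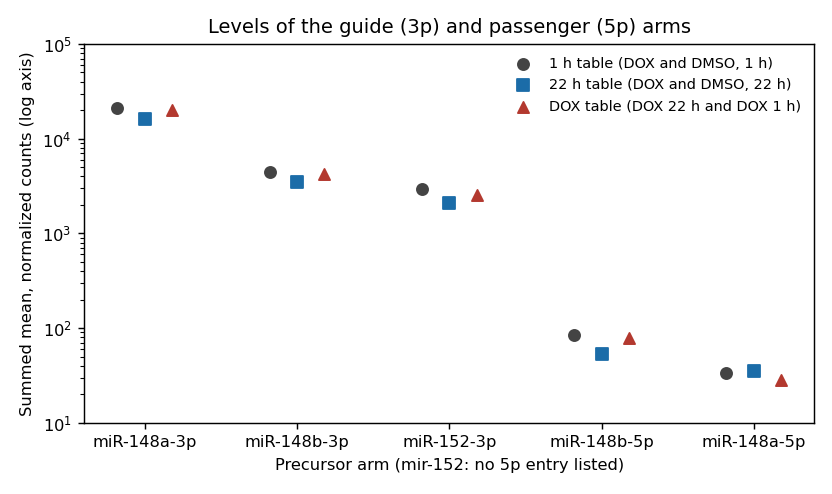
Summed mean in normalized counts (log axis) of each family arm in the 3 tables, 1 symbol per table, with no error bar because a mean over both sides was used. The guide arms ran from 2088 to 20876 normalized counts and the passenger arms from 28.5 to 85.1, and no 5p entry of mir-152 was listed.

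Guide arms made up nearly all of the signal. The 3p arm took 99.8%, 99.8% and 99.9% of the summed mean of mir-148a in the 1 h, 22 h and DOX tables. For mir-148b it took 98.1%, 98.5% and 98.2%. The passenger arm miR-148b-5p, with 85.1, 53.1 and 78.6 normalized counts, exceeded miR-148a-5p, with 33.6, 35.4 and 28.5, although its precursor had the lower guide level. For mir-152 all 10 listed entries began at 1 start position, at the run shared by the guide arms, and no passenger entry was listed. Passenger entries were therefore compared for 2 of the 3 precursors.

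The members differed in how many guide forms were listed. miR-148a-3p was almost a single sequence: form 1 took 99.9% of its summed mean in each table, and the other form began 1 base later. miR-148b-3p form 1 took 69.7% at 1 h, 70.1% in the 22 h table and 71.4% in the DOX table. The leading miR-152-3p form took 55.6%, 59.3% and 60.3%. Of the 10 miR-152-3p entries, 7 were in all 3 tables, and 3 more, of 16, 17 and 20 bases, were listed in the 1 h table alone, without a usable mean.

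Forms of miR-148b-3p and miR-152-3p differed at the 3′ end, and both began at the same base in every entry. miR-148b-3p form 2 carries 1 more T than form 1. It had 1044 reads of 3713 in DOX 22 h, 995 of 3215 in DMSO 22 h and 1364 of 4806 in DOX 1 h, which is 28.1% (interval 26.7 to 29.6), 30.9% (29.4 to 32.6) and 28.4% (27.1 to 29.7) of the arm. The share was highest in DMSO 22 h, and its interval overlapped those of both DOX libraries. The 17-base form 3 held 0.377% of the reads in DOX 22 h, 0.435% in DMSO 22 h and 0.270% in DOX 1 h.

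miR-152-3p form 1 ends in GG, and the longer forms add G, T or A. Form 1 held 60.5% of 2293 reads in DOX 22 h (interval 58.5 to 62.5), 57.9% of 1898 in DMSO 22 h (55.6 to 60.1) and 60.1% of 2774 in DOX 1 h (58.3 to 62.0). Longer forms ending in T (forms 2, 4 and 6) held 25.5%, 27.5% and 25.4% in that order of libraries. Addition of U or A to miRNA 3′ ends is a known modification, and which of these bases the guinea pig precursor encodes was not tested here. Longer forms ending in A (forms 5 and 7) held 4.32% (3.52 to 5.23), 5.95% (4.93 to 7.11) and 5.30% (4.50 to 6.20). The form with an added G, form 3, held 9.68%, 8.64% and 9.16%. Form 4, which adds G and T, held 5.45% in DOX 22 h (4.56 to 6.46), 7.80% in DMSO 22 h (6.63 to 9.10) and 7.28% in DOX 1 h (6.34 to 8.31). The DOX 22 h and DMSO 22 h intervals of form 4 did not overlap, and form 5 gave a like pair, 3.53% (2.82 to 4.37) against 5.37% (4.40 to 6.49). The DOX 22 h and DMSO 22 h intervals of the other forms of this arm overlapped. Forms 4 and 5 were picked after the values were seen. How often such intervals fail to overlap among forms of other miRNAs was not counted. These intervals hold no spread between cultures, since each library is 1 sample.

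**Figure D2:**
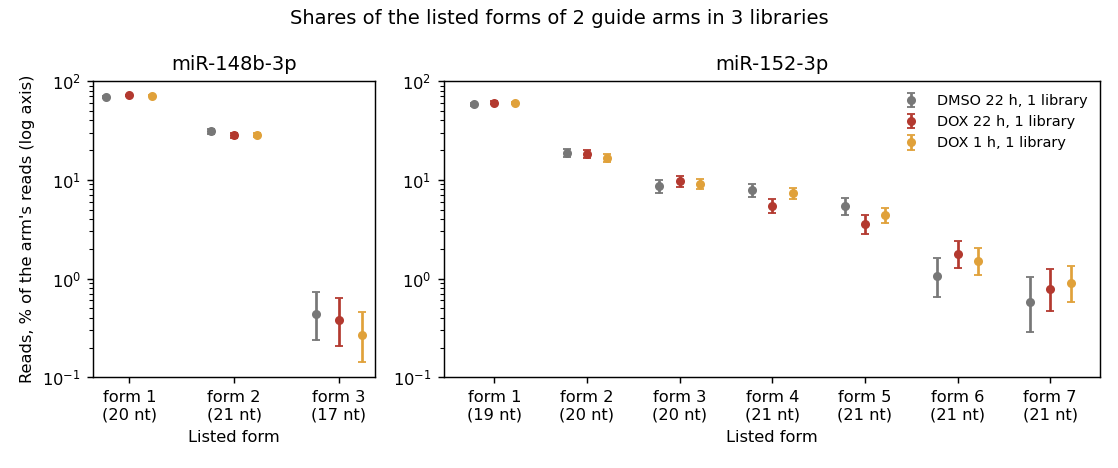
Percent of an arm's reads (log axis) in each listed form of miR-148b-3p and miR-152-3p, with points for 1 library each of DMSO 22 h, DOX 22 h and DOX 1 h and bars for 95% counting intervals. Form 1 leads in every library. miR-152-3p form 4, picked after the values were seen, has a lower share in DOX 22 h (5.45%) than in DMSO 22 h (7.80%).

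At 22 h, the question was whether DOX-exposed cells differed from vehicle cells in the family's reads. The guide arms that could be resolved were nearly level. miR-148b-3p had 3713 reads in DOX 22 h and 3215 in DMSO 22 h, a log2 ratio of 0.04 after scaling by the libraries' size factors, which follow from the same means (DOX 22 h over DMSO 22 h, interval -0.03 to 0.11, a 1.03-fold ratio). miR-152-3p had 2293 and 1898 reads, a log2 ratio of 0.10 (0.02 to 0.19, 1.07-fold). Both passenger arms had fewer scaled reads in DOX 22 h. miR-148b-5p, summed over its 2 forms in the table, had 44 and 61 reads, a log2 ratio of -0.64 (-1.23 to -0.06). miR-148a-5p had 30 and 40 reads, a log2 ratio of -0.58 (-1.32 to 0.13), an interval that includes 0.

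Of the 15 family entries in the 22 h table, 14 had 1 solution, and 1 of these lay at or past a 2-fold ratio. It was miR-148b-5p form 2, with 20 reads in DOX 22 h and 37 in DMSO 22 h, a log2 ratio of -1.04 (interval -1.92 to -0.23). miR-148b-5p form 1, which is 1 base longer, had 24 reads in each library and a log2 ratio of -0.17 (-1.05 to 0.71). None was 2-fold higher in DOX 22 h. Among all 1216 resolved entries, 4.85% were at least 2-fold lower and 6.09% at least 2-fold higher in DOX 22 h, so 1 of 14 is near the background. The median log2 ratio was -0.01 over the family's entries and 0.00 over all entries. Within miR-152-3p, forms 4 and 5 had log2 ratios of -0.41 (-0.77 to -0.06) and -0.50 (-0.94 to -0.07), the latter from 81 against 102 reads. Form 6 had 41 against 20 reads, a log2 ratio of 0.85 (0.06 to 1.72). These forms were picked after their values were seen.

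Between DOX 22 h and DOX 1 h, the guide arms that could be resolved were again close. miR-148b-3p had 3713 and 4806 reads, a scaled log2 ratio of -0.01 (DOX 22 h over DOX 1 h, interval -0.07 to 0.05, 0.993-fold). miR-152-3p had 2293 and 2774 reads, a log2 ratio of 0.09 (0.01 to 0.17, 1.06-fold). The DOX 22 h library is the one used for 22 h, so the results of both comparisons share it. miR-148a-5p form 1 had 30 reads in DOX 22 h and 21 in DOX 1 h, a log2 ratio of 0.87 (0.02 to 1.76), and miR-148b-5p form 1 had 24 and 51, a log2 ratio of -0.71 (-1.49 to 0.00). miR-148b-5p form 2, the entry past 2-fold against DMSO 22 h, had 20 and 25 reads and a log2 ratio of 0.05 (-0.88 to 0.95).

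Of the 20 family entries in the DOX table, 18 had 1 solution. At or past 2-fold, 1 was higher and 3 were lower in DOX 22 h, against 11.6% and 12.9% of all 1788 resolved entries. All of them were passenger entries with at most 7 reads in either library. The 1 that was higher, miR-148b-5p form 6, had 5 reads in DOX 22 h and 1 in DOX 1 h. Those that were lower were miR-148a-5p form 2 with 0 and 5 reads, miR-148b-5p form 4 with 2 and 7, and miR-148b-5p form 5 with 2 and 6. Their counting intervals all included 0, so no difference was detectable at this depth. The median log2 ratio was -0.01 over the family's entries and 0.01 over all entries.

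**Figure D3:**
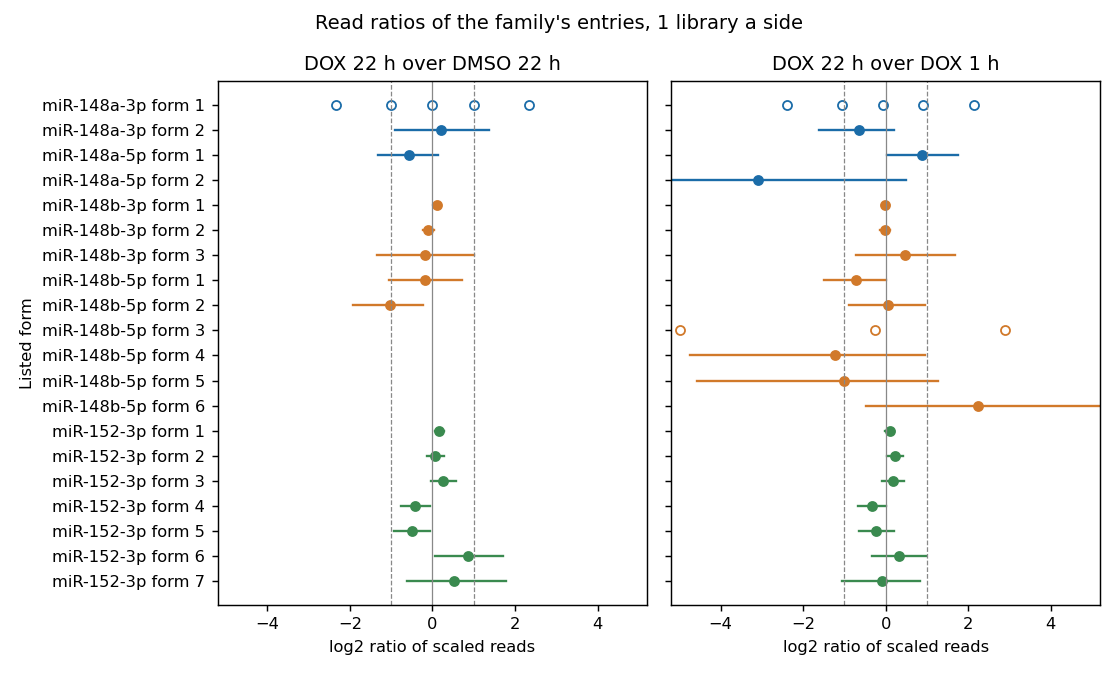
Log2 ratios of scaled reads for each listed form in DOX 22 h over DMSO 22 h and DOX 22 h over DOX 1 h (filled points, 95% counting intervals as lines cut at the frame, dashed lines at 2-fold), 1 library a side. Open circles are the alternative solutions of forms whose reads could not be fixed, 5 for miR-148a-3p form 1 and 3 for miR-148b-5p form 3. The resolved guide forms with many reads sit near 0.

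The leading member is given without a ratio, because the means used here did not fix its reads. The means of miR-148a-3p form 1, 16194 and 19943 normalized counts in the 22 h and DOX tables, allowed 5 sets of whole reads. With 5646 reads in DOX 22 h there would be 25522 in DMSO 22 h and 37968 in DOX 1 h, and with 28662 there would be 5054 and 8376. The middle set gave 17154, 15288 and 23172 reads, with log2 ratios of 0.00 for DOX 22 h over DMSO 22 h and -0.07 for DOX 22 h over DOX 1 h. Log2 ratios of the other sets ran from -2.35 to 2.33 against DMSO 22 h and from -2.39 to 2.14 against DOX 1 h. Resolved entries with a mean of at least 1000 gave a frame for these sets. Among 127 of them in the 22 h table, log2 ratios ran from -1.72 to 0.57, with 2 entries past 2-fold. Among 139 in the DOX table they ran from -0.50 to 0.56. The middle set lay within both ranges. The set with 11400 reads in DOX 22 h, at log2 ratios of -1.01 and -1.06, lay within the 22 h range only. The remaining sets lay within neither. Of entries this abundant, 127 of 234 in the 22 h table and 139 of 253 in the DOX table were resolved. Successive sets lie a fixed number of reads apart, so an entry as abundant as miR-148a-3p form 1 in both tables always has more than 1. The frame therefore holds no entry that abundant in both tables. The frame describes other miRNAs and does not fix the reads of miR-148a-3p. Its second form had 17 reads in DOX 22 h, 13 in DMSO 22 h and 35 in DOX 1 h, with log2 ratios of 0.21 (-0.91 to 1.38) and -0.66 (-1.61 to 0.20).

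**Figure D4:**
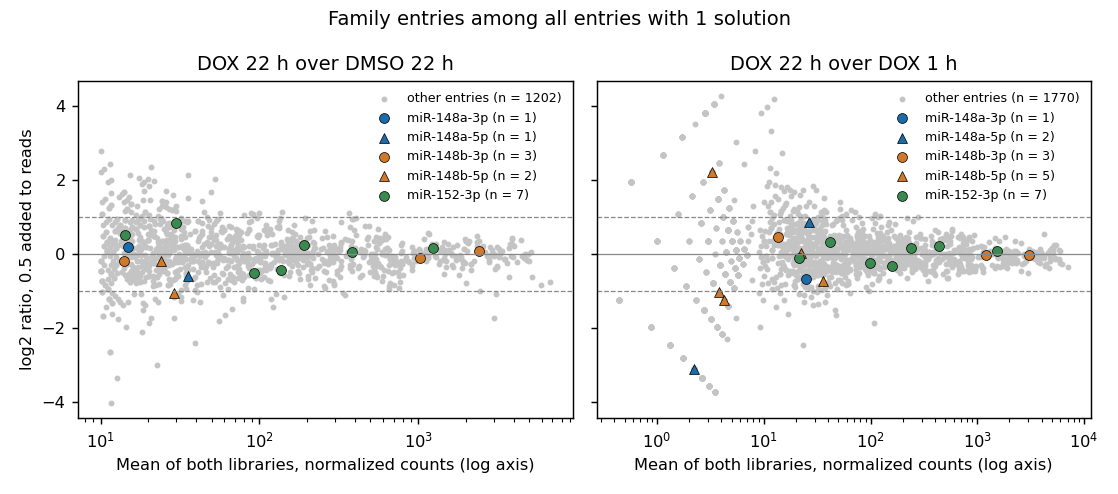
Log2 ratio of scaled reads against the mean of both libraries (log axis) for every entry with 1 solution, with the family's entries in colour (circles 3p, triangles 5p), grey points for other entries and dashed lines at 2-fold. The family's plotted entries with means over 1000 normalized counts lie between -0.10 and 0.17, and the spread of all entries widens toward low means. miR-148a-3p form 1, the most abundant family entry, has 5 solutions and is not plotted.

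The profile of miR-148a-3p over the 3 tables was set beside that of 198 other precursor arms with a summed mean of at least 100 in each table. The measure was the Euclidean distance between log2 shares of a table's summed means, each centred on its own average, over 3 table means that share libraries. The 3 nearest arms were mir-29b-2-3p at a distance of 0.011, miR-148b-3p at 0.012 and mir-423-3p at 0.014. Counting error was not part of the measure, so the order of these near arms is not fixed. The whole mir-29b-2 precursor had 671, 507 and 645 normalized counts in the 1 h, 22 h and DOX tables. miR-152-3p ranked 70 of 198 at 0.13. It took 0.0507% of the summed means in the 1 h table, 0.0437% in the 22 h table and 0.0420% in the DOX table, while miR-148a-3p took 0.355%, 0.339% and 0.333%.

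Other miRNAs known to act on DNA methyltransferases were read from a list of 9 precursors (mir-29a, mir-29b-1, mir-29b-2, mir-29c, mir-101-1, mir-101-2, mir-143, mir-185 and mir-342). All 9 had a mean in both tables. mir-29b and mir-101 stand as 2 precursors each, and the entries and summed means of each precursor were counted separately. At 22 h, 4 of their 89 resolved entries (4.49%) were at least 2-fold higher in DOX 22 h, against 6.09% of all resolved entries, and 4 (4.49%) at least 2-fold lower, against 4.85%. Their median log2 ratio was -0.05, against 0.00 over all entries. In the DOX table, 17 of 112 (15.2%) were higher, against 11.6% of all, and 5 (4.46%) lower, against 12.9%. Their median log2 ratio there was 0.12, against 0.01 over all entries. By summed mean of the whole precursor in the 22 h table, mir-29a had 29304 normalized counts, mir-101-1 had 12508 and mir-101-2 had 12767. The single arm miR-148a-3p had 16209, and the 2 mir-101 precursors were not summed for this. mir-143 had 985996, the highest of the list, and mir-342 had 124, the lowest.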

How the data were processed

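Small RNA libraries (Illumina TruSeq) were mapped by the authors against human sequence with the BaseSpace app Small RNA v1.0, with FastQC and MultiQC for quality and hg19 as the build in the submitters' processing notes; the aligner version is not given in the sources used here. The authors deposited 3 tables made with DESeq2. The mean deposited by the authors is a signal: they divided reads by size factors and averaged both sides. In the 1 h and 22 h tables it had lost its decimal mark, so its power of 10 was set from that entry's value in the DOX table (1506 and 1323 entries). Restored family means lay within 1.68 times that reference. The tables' fold changes, standard errors, p-values, adjusted p-values, status and per-side values are the authors' own comparisons and were not used.

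Groups came from sample titles. Library names come from rows for predicted miRNAs. For each of 2 tables the step of the means gave the libraries' weights, 731 (DOX 22 h) and 822 (DMSO 22 h), and 9 (DOX 22 h) and 7 (DOX 1 h), because the size factors that the authors' tool gives 2 libraries multiply to 1. Of 4 ways to assign the shared library, 1 solved all 1052 entries that the 22 h table fixes alone, and the next solved 132. On simulated data with known reads, 1094 of 1094 entries with 1 solution were recovered rightly. Size factors were 1.06 and 0.943, and 0.882 and 1.13. Ratios had 0.5 added to reads, intervals had none. Full library depth is unknown; summed means were 5874570, 4776590 and 6005180. No test was run (Python 3.11.15, NumPy 2.4.6, SciPy 1.17.1).

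Named entries were, per arm and table, the most abundant one and those at or past 2-fold with at least 10 reads in 1 library; other entries named were chosen after their values were seen. Members and lists were chosen with earlier results of these data known.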

Additional observations from a re-analysis of the deposited data

How the results depend on the processing

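No paired analysis was possible because the results come from no test and each recovered comparison holds 1 library on each side. Leaving out a replicate was not possible there for the same reason. In the 1 h table the mean used covers both groups and was not split into libraries, so no replicate was left out. Of 142 alternative values for 51 results, 122 stayed within the counting interval of the reported value (for counts, within 1.5 times). The other 20 were counted as moved, and 0 reversed a called value. For 3 of the 20 no counting interval was computed, and they were set as moved without a check. These were the log2 ratios of guide arm summed means, 22 h table over 1 h table, after each mean was divided by its table's sum. They went from -0.37 to -0.07 for miR-148a-3p, from -0.35 to -0.05 for miR-148b-3p and from -0.51 to -0.21 for miR-152-3p. No read ratio of an arm reached 2-fold, so none of these ratios could count as reversed. That of miR-148a-5p against DOX 1 h went from 0.57 to -1.11 with the median of its entries' ratios. Each family sequence was listed under 1 precursor, and family means in the 1 h and 22 h tables were above 10. Filters on these 2 points could therefore not move such values. With only the most abundant entry of each arm, the order of the guide arms was kept and the log2 distances grew, from miR-148a-3p to miR-148b-3p to 2.77, 2.74 and 2.72, and from miR-148b-3p to miR-152-3p to 0.89, 0.97 and 0.99 (1 h, 22 h and DOX tables). The guide share of mir-148b in the DOX table rose to 98.6% with a minimum mean of 10 and with entries present in all 3 tables. It was also 98.6% from the reads of DOX 22 h alone. Each of these settings leaves out passenger entries. The reads leave out miR-148b-5p form 3, which could have 0, 7 or 14 reads in DOX 22 h. The median of the entries' ratios put miR-148b-3p at -0.10 in DOX 22 h over DMSO 22 h, the side of its second form. At 1.5-fold, 2 family entries (DMSO 22 h) and 7 (DOX 1 h) were past the limit, and with at least 10 reads in both libraries 0 were past 2-fold in the latter. The direction of miR-148b-3p against DOX 1 h depends on scaling: -0.01 as reported, 0.02 by total recovered reads and -0.05 by the median ratio. Solved alone, the DOX table fixed 4 family entries in place of 18. Depth limits the passenger arms, with at most 51 reads per entry and library.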

Other observations

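miR-148a-3p, at 16209 to 20876 normalized counts, was listed as 2 forms, while miR-152-3p, at 2088 to 2976, was listed as 7 forms with a mean. No form of miR-148a-3p with the added T of miR-148b-3p form 2 was listed in any table, although that form made up 28.1% to 30.9% of the reads of miR-148b-3p. The listing by the authors' software was not tested as a source of this difference.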
